A study of Mus musculus with 2 samples.

Results

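The genes described here are 9 that mark antibody production: the heavy chain constant genes Ighg1, Ighg2b, Ighg2c and Ighg3 (the IgG subclasses), Ighm (IgM) and Igha (IgA), the kappa light chain constant gene Igkc, and the plasma cell genes Jchain and Mzb1. They were chosen by name, as the rows of the count tables whose gene identifiers carry these symbols in GENCODE M21, and all 9 were found among 55421 genes. The choice was made with earlier results of these data known. Liver RNA of mice was sequenced in 1 library per genotype, with 8 weeks given as the time of both. The WT library came from Rcrin flox mice, in which the gene is flanked by recombination sites and still present, and the other from Rcrin conditional knockout mice. The labels name neither the promoter or cell type of the recombinase nor the number, sex or strain of the mice behind a library. Rcrin itself was not analysed here. The libraries held 65121596 (WT) and 63587567 (knockout) counts, and all 5 hepatocyte markers (Alb, Ttr, Apoa1, Cps1 and Asgr1) were counted in both, which fits the liver label. With 1 library per genotype there is no spread between mice and no test. Each difference below is between these 2 libraries, and each interval is an exact 95% interval that covers counting error only.

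Antibodies are built from paired heavy and light chains. B cells carry them on the surface, mostly as IgM and IgD, and plasma cells, the end stage of B cells, secrete them in bulk. The variable end of a chain is encoded by one of many V segments joined to a short J segment, and the class of the antibody is set by the constant gene of the heavy chain, which a B cell can switch from IgM to IgG, IgA or IgE. The liver receives blood from the gut and spleen, holds resident lymphocytes, and passes IgA into bile.

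The IgG heavy chain genes lie side by side on the minus strand of chromosome 12 (GRCm38), and what separates the subclasses most visibly is the hinge, encoded by the second exon. It is shown here in the coding direction from GENCODE M21, with in-frame cysteine codons in capitals. The hinges differ in length and in part in their number of cysteines, and a link of the hinge to RNA level was not tested. The exons lie at chr12:113329844-113329882 (Ighg1), chr12:113307261-113307326 (Ighg2b), chr12:113288263-113288325 (Ighg2c) and chr12:113360529-113360576 (Ighg3).
Ighg1: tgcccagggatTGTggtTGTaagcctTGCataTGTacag
Ighg2b: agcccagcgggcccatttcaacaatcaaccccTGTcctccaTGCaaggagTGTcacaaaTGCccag
Ighg2c: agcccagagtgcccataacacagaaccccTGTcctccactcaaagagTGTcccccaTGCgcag
Ighg3: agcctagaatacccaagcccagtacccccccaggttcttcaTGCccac
The hinge exons of Ighg1 and Ighg2b hold 4 cysteine codons each, that of Ighg2c 3 and that of Ighg3 1. Over the coding sequence of the shortest transcripts, Ighg2b and Ighg2c were 85.6% identical, while Ighg1 was 74.2% identical to Ighg2b and 75.1% to Ighg2c. Of all 50-base windows in their transcripts, 0.393% of those of Ighg1, 4.15% of those of Ighg2b, 5.49% of those of Ighg2c and 1.58% of those of Ighg3 also occurred in another gene. At 100 bases the share was 0% for each of the 4. The read length was not given in the sources used here, so how far reads could be shared between the subclasses cannot be settled.

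The IgG genes stood far lower in the knockout library. Summed over the 4 genes, IgG had 8320 WT and 801 knockout counts, 9.79-fold lower (log2 ratio -3.29, interval -3.40 to -3.19). Ighg1 (ENSMUSG00000076614, chr12:113325240-113330523) had 2575 and 84 counts, 28.9-fold lower (log2 ratio -4.84, interval -5.18 to -4.54). Ighg1 is the subclass typical of responses to soluble protein antigens. Ighg2b (ENSMUSG00000076613, chr12:113302965-113307933) had 2990 and 276 counts, 10.2-fold lower (log2 ratio -3.35, interval -3.54 to -3.17). Ighg2c (ENSMUSG00000076612, chr12:113285325-113288932), the counterpart of IgG2a in strains such as C57BL/6, had 2703 and 429 counts, 5.94-fold lower (log2 ratio -2.57, interval -2.72 to -2.42). These 3 intervals do not overlap, so by counting error the subclasses differed from each other, with the largest difference for Ighg1. Ighg3 (ENSMUSG00000076615, chr12:113356224-113361232) was scarce, with 52 and 12 counts (log2 ratio -1.99, interval -3.07 to -1.11), and its mean of 32 left it under the level of 50 counts used for comparisons across genes. In bulk tissue, fewer cells of a type and less RNA per cell cannot be told apart, here and for every gene below.

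IgA stood lower by less than the main IgG genes, and IgM did not share the direction. Igha (ENSMUSG00000095079, chr12:113254830-113260236) went from 4175 WT to 949 knockout counts, 4.15-fold lower (log2 ratio -2.05, interval -2.16 to -1.95). Ighm (ENSMUSG00000076617, chr12:113418558-113422730), which B cells express before class switching, had 430 and 548 counts, 1.35-fold higher (log2 ratio 0.43, interval 0.25 to 0.62). Ighd, which naive B cells make together with IgM from one long transcript, had 30 and 98 counts, 3.47-fold higher (log2 ratio 1.78, interval 1.19 to 2.43). So the unswitched classes lay above, and the switched classes IgG and IgA below, their WT level. IgE (Ighe) was listed at 0 in both libraries.

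Because a share within a library needs no scaling between libraries, the classes were also compared as shares of all heavy chain constant counts, 12955 in the WT and 2396 in the knockout library. IgG made up 64.2% (interval 63.4 to 65.0) of the WT counts and 33.4% (31.5 to 35.4) of the knockout counts. IgM and IgD together made up 3.55% (3.24 to 3.88) and 27.0% (25.2 to 28.8). IgA made up 32.2% (31.4 to 33.0) and 39.6% (37.6 to 41.6). The knockout library thus held a smaller share of IgG and larger shares of IgM with IgD and of IgA. Within IgG, Ighg1 took 30.9% (30.0 to 32.0) of the WT counts and 10.5% (8.45 to 12.8) of the knockout counts, and Ighg2c took 32.5% (31.5 to 33.5) and 53.6% (50.03 to 57.1). Ighg2b took 35.9% (34.9 to 37.0) and 34.5% (31.2 to 37.9), intervals that overlap.

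**Figure D1:**
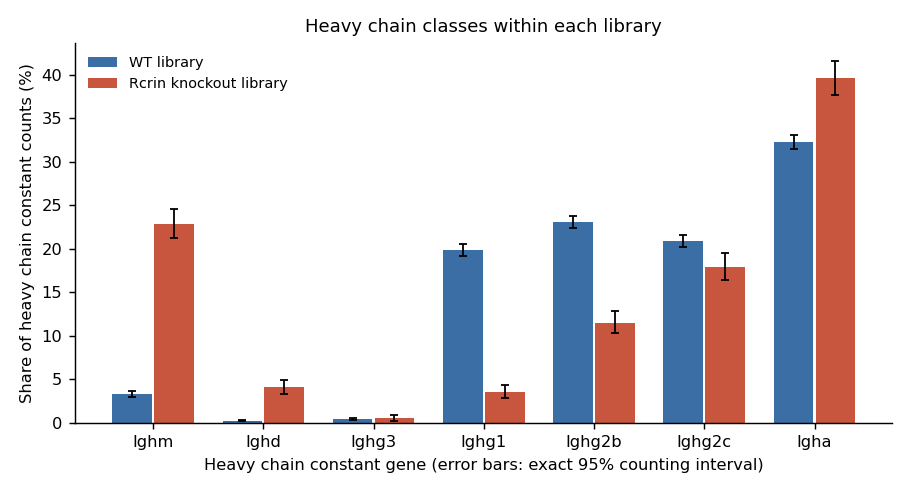
Share of each heavy chain constant gene in all heavy chain constant counts of a library, in percent, with exact 95% counting intervals as error bars. Ighm goes from 3.32% in the WT library to 22.9% in the knockout library and Ighg1 from 19.9% to 3.51%, while Igha is the single gene with the largest share of raw counts in both.

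Per kb of the shortest transcript, which for the heavy chains is the secreted form or close to it in length, Igha led the WT library at 57.3 CPM per kb. Ighg2b followed at 40.5, Ighg2c at 36.7 and Ighg1 at 36.1, the last pair with overlapping intervals (35.3 to 38.1 and 34.7 to 37.5). Jchain stood at 25.0 and Ighm at 4.35, and the lowest pair, Ighg3 at 0.725 and Igkc at 0.709, also overlapped. In the knockout library the order of these levels was Igkc (50.1), Igha (13.8), Ighg2c (6.18), Ighm (5.88), Jchain (5.44), Ighg2b (3.97), Ighg1 (1.25) and Ighg3 (0.178). There the intervals of Ighg2c, Ighm and Jchain all overlapped one another. The order depends on the length used: per kb of merged exons, Ighg2c (30.8) led the heavy chains of the WT library, ahead of Igha (23.6). Mzb1 is left out of this order because its shortest annotated transcript is a fragment of the gene.

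The kappa light chain gene stood on the other side from the IgG, IgA and lambda genes. Igkc (ENSMUSG00000076609, chr6:70726435-70726966, plus strand) had 25 WT and 1666 knockout counts, 70.7-fold higher (log2 ratio 6.11, interval 5.58 to 6.78). The kappa V segments, which are joined to this same constant gene in every kappa chain, pointed the other way. Summed over 102 segments, they had 4416 WT and 625 knockout counts, 6.66-fold lower (log2 ratio -2.73, interval -2.86 to -2.61). For each V count there were 0.00566 constant counts for WT and 2.67 for the knockout (intervals 0.00366 to 0.00837 and 2.43 to 2.93). The knockout ratio was near those of the lambda locus given below, and the WT ratio far under them. The first 120 coding bases of Igkc (chr6:70726435-70726554) are shown for the gene on which this contrast turns.
Igkc: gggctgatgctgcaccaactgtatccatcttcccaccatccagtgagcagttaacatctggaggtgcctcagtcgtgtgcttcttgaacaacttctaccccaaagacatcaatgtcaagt
No 50-base window of the Igkc transcript occurred in another annotated transcript. The noncoding gene Gm30211 spans the locus on the same strand without sharing an exon and had 3 counts in each library. Igkc has a single exon, and genes with 1 exon differed widely between these libraries: 31.1% of the 354 with a mean of at least 50 counts stood apart by 64-fold or more, against 0.196% of 11208 genes with 3 or more exons. The part of exon number in the Igkc value was not tested beyond this.

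Lambda light chains, the minor class in mice, were lower in both their constant and V parts. The lambda constant genes had 626 and 175 counts in sum, 3.37-fold lower (log2 ratio -1.75, interval -2.004 to -1.51), and the 3 lambda V segments had 231 and 64, 3.40-fold lower (log2 ratio -1.76, interval -2.19 to -1.36). Here the constant counts per V count had overlapping intervals, at 2.71 (2.33 to 3.17) for WT and 2.73 (2.04 to 3.70) for the knockout. Iglc2 had 374 and 143 counts (log2 ratio -1.30) and Iglc3 84 and 32 (log2 ratio -1.29). Iglc1 had 168 counts in the WT and was listed at 0 in the knockout library. Iglc1 and Iglc3 have a single exon, as Igkc has, and no fold is given for Iglc1. Iglc1 supplied 168 of the 626 WT counts, and without it the lambda constant genes had 458 and 175 counts, 2.47-fold lower (log2 ratio -1.30, interval -1.56 to -1.05). The near-equal constant counts per V count above include Iglc1, and leaving it out would lower the WT value alone. The first 120 coding bases of each gene, on the minus strand of chromosome 16, show how they relate, with bases that differ from Iglc2 after alignment in capitals (chr16:19061952-19062071 for Iglc1, chr16:19198734-19198853 for Iglc2 and chr16:19065562-19065681 for Iglc3).
Iglc1: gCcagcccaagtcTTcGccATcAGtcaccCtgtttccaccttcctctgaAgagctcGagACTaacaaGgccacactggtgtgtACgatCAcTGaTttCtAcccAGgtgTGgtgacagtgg
Iglc2: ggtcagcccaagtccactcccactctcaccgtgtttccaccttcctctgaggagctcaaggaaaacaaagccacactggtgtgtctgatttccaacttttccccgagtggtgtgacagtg
Iglc3: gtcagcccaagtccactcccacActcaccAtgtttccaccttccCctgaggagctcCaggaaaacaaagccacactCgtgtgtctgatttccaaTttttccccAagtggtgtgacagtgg
Iglc3 was 96.5% identical to Iglc2 over the coding sequence and Iglc1 74.8%, so counts of Iglc2 and Iglc3 are the less certain pair. Exons of the antisense gene 2010309G21Rik, listed at 0 in both libraries, cover 20.6% of the exon bases of Iglc3. By V segments, kappa made up 95.03% (94.4 to 95.6) of light chain counts for WT and 90.7% (88.3 to 92.8) for the knockout. By constant genes the kappa share was 3.84% (2.50 to 5.62) and 90.5% (89.1 to 91.8), so both measures met in the knockout library and were far apart in the WT library.

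**Figure D2:**
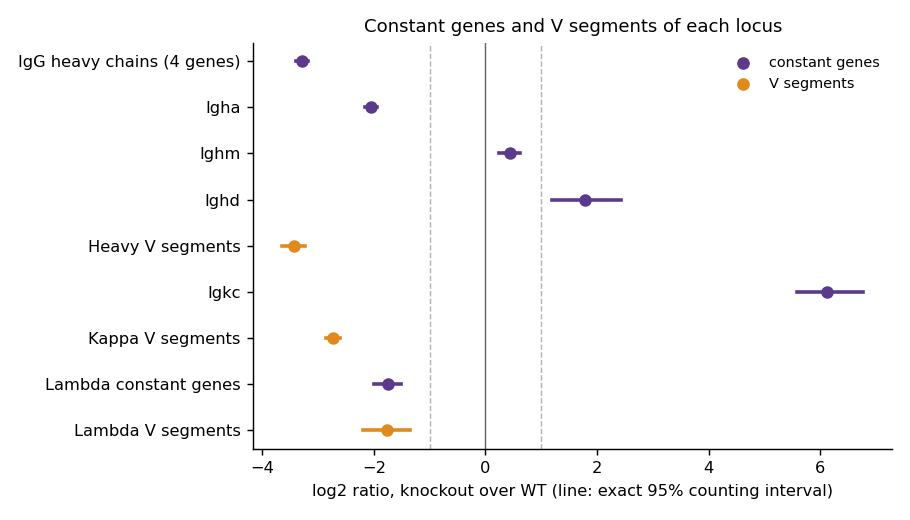
Log2 ratio of the knockout over the WT library for constant genes (purple) and summed V segments (orange) of the 3 antibody loci, with exact 95% counting intervals and dashed lines at 2-fold. Lambda constant genes (-1.75, or -1.30 without Iglc1) and lambda V segments (-1.76) lie on the same side, while Igkc (6.11) and the kappa V segments (-2.73) lie on opposite sides of 0.

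The V segments gave a second reading of the antibody loci, from exons other than those of the constant genes. All 218 annotated V segments together had 7199 WT and 911 knockout counts, 7.45-fold lower (log2 ratio -2.90, interval -3.00 to -2.80). The heavy V segments, with 2552 and 222 counts, were 10.8-fold lower (log2 ratio -3.43, interval -3.64 to -3.24). That lies beyond the summed heavy chain constant genes, which were 5.10-fold lower (log2 ratio -2.35, interval -2.41 to -2.29). Of the 218 segments, 88 were counted in both libraries, 72 only in the WT and 9 only in the knockout library, and 49 in neither. In all, 160 segments had a count in the WT and 97 in the knockout library. Of the 19111 genes with a count in either library, 17487 had one in the WT and 17333 in the knockout library. The segments with most counts at the heavy locus were Ighv3-6 with 264 and 14 counts, Ighv14-2 with 125 and 9, and Ighv1-80 with 111 and 2. At the kappa locus they were Igkv10-96 with 388 and 20 counts, Igkv8-30 with 316 and 39, and Igkv6-17 with 247 and 14. Each of these 6 segments had fewer counts in the knockout library. They were picked by summed counts, which come mostly from the WT library, so the choice itself favoured this direction. Iglv2 had 155 and 33 counts and Iglv1 76 and 23. The third lambda segment, Iglv3, was listed at 0 in the WT and had 8 counts in the knockout library.

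No single segment carried either library. The leading segment took 5.39% of V counts for WT (Igkv10-96) and 5.16% for the knockout (Igkv14-111, 142 and 47 counts), and the top 10 took 32.1% and 33.7%. With V counts thinned to the same total of 911, 130.1 segments would be counted in the WT library, against 97 in the knockout library. At the heavy locus the numbers were 57.2 and 35 at 222 counts, and at the kappa locus 66.3 and 59 at 625 counts. At the lambda locus all 3 segments were counted in the knockout library and 2 in the WT library. The thinning treats each count as independent, which PCR copies are not, and has no interval. Without thinning, the top 10 segments took 41.8% and 59.0% of heavy V counts, but 49.3% and 46.7% of kappa V counts. The heavy shares rest on 2552 WT and 222 knockout counts. A top share can be higher at fewer counts, so the top 10 shares are not matched between the libraries. At the heavy locus a median of 21.9% of the 50-base windows of a segment, and at the kappa locus 25.6%, also occurred in another gene. At 100 bases both medians were 0%, and the highest shares were 96.9% and 71.8%, so counts of single segments are uncertain and their sums are firmer.

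**Figure D3:**
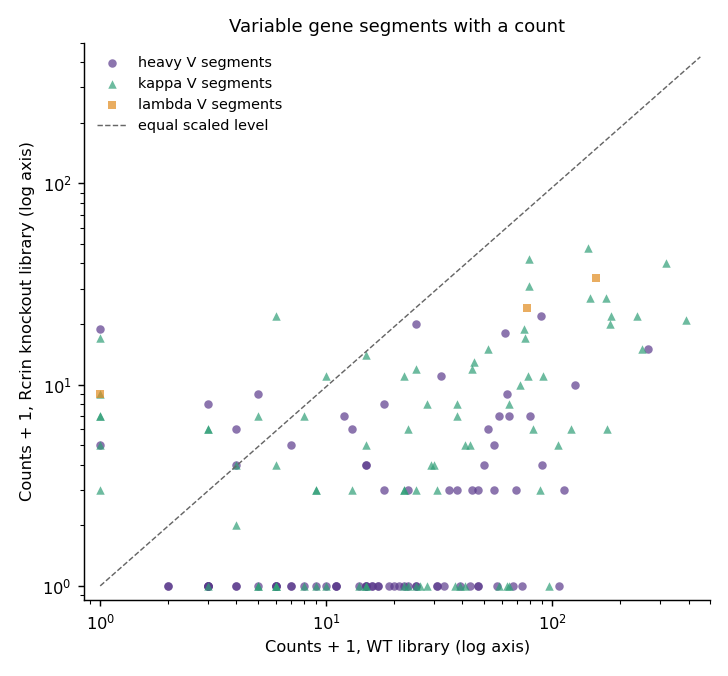
Counts plus 1 of each V segment in the WT library (horizontal) and the knockout library (vertical), both on log axes, by locus, with a dashed line where the scaled level is equal. Most segments lie below the line, and the highest count in the knockout library is 47.

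Jchain and Mzb1, the plasma cell genes of the set, stood lower beside IgG and IgA. Jchain (ENSMUSG00000067149, chr5:88519809-88527891, minus strand) encodes the chain that links IgA and IgM units into polymers. It had 2311 and 473 counts, 4.61-fold lower (log2 ratio -2.20, interval -2.35 to -2.06), close to the 4.15-fold of Igha. That closeness depends on the setting: with the trend over GC content removed, Jchain stood at -2.71 and Igha at -1.89. Mzb1 (ENSMUSG00000024353), a chaperone of the endoplasmic reticulum that assists antibody assembly, had 233 and 77 counts, 2.85-fold lower (log2 ratio -1.51, interval -1.90 to -1.13). Exons of the gene SPATA24, listed at 0 in both libraries, cover 57.2% of the exon bases of Mzb1 on the same strand, so the count of Mzb1 is uncertain.

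Of the 9 genes, 8 had a mean of at least 50 counts, and 6 of these were at least 2-fold lower and 1 at least 2-fold higher in the knockout library. Among all 12064 genes at that level, 8.61% were lower and 8.45% higher by as much, with a median log2 ratio of -0.01. The 9 genes were chosen with earlier results of these data known, so their excess over these shares is no test. Igkc passed the level only through the knockout library, in which it is high. Without a level filter 7 of the 9 were lower and 1 higher by 2-fold, beside 18.6% and 17.6% of the 19111 genes with any count. At a mean of at least 500 counts it was 5 and 1 of 6 genes, beside 6.44% and 6.26% of all such genes. With 4-fold as the limit 5 were lower and 1 higher, beside 2.8% and 2.51%, and with 1.5-fold 6 and 1, beside 18.8% and 19.0%. Among those of the 9 with 3 or more exons, 6 of 7 were lower and 0 higher by 2-fold, beside 7.7% and 7.66%. Among genes with 4 or more exons, as Ighg1, Ighg2b, Ighg2c, Igha, Jchain and Mzb1 have, 7.35% were lower.

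The other plasma cell markers also stood lower, while Xbp1, a regulator of secretion, did not. Prdm1, the regulator that ends the B cell program, had 33 and 9 counts (log2 ratio -1.74, interval -3.04 to -0.69). Tnfrsf17, the survival receptor BCMA of plasma cells, had 36 and 10 (log2 ratio -1.71, interval -2.94 to -0.72). Irf4, a transcription factor that plasma cell formation needs, had 42 and 16 counts (log2 ratio -1.28, interval -2.24 to -0.45). Derl3, which takes part in the removal of misfolded proteins, had 574 and 187 (log2 ratio -1.53, interval -1.78 to -1.29). The first 3 are thinly counted, under the mean of 50 counts used for comparisons across genes. Each of the 4 intervals lies below 0, but it covers counting error only. The share of all genes with such an interval is not given here, so these 4 have no background to be set beside. Sdc1 and Xbp1, which hepatocytes express strongly, were at 30556 and 18133 counts (log2 ratio -0.67) and at 21731 and 22668 counts (log2 ratio 0.15). Summed over the 7 plasma cell markers, all counted in both libraries, the level was 509.7 and 302.6 CPM, and without Sdc1 it was 48.7 and 12.4. Jchain and Mzb1 made up most of the latter, and without them the level was 10.3 and 3.55 CPM (log2 ratio -1.54, interval -1.77 to -1.32). Derl3 supplied most of that last sum, with 574 of 685 WT and 187 of 222 knockout counts, so it largely repeats Derl3.

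The wider list of 32 plasma cell and secretion genes, many of which hepatocytes also express, showed a smaller shift. Of 25 genes compared, 5 were at least 2-fold lower and 0 higher, beside 8.61% and 8.45% of all genes, and their median log2 ratio was -0.28. The lowest were the disulfide isomerase Pdia4 (22413 and 4852 counts, log2 ratio -2.12) and Derl3. The highest were the peroxiredoxin Prdx4 (6290 and 10544 counts, log2 ratio 0.83) and the cargo receptor Lman1 (log2 ratio 0.66).

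B cell genes were mixed, with some receptor genes higher and most compared genes of the list lower. Cd79a and Cd79b, which carry the signal of the B cell receptor, had 88 and 140 counts (log2 ratio 0.75, interval 0.36 to 1.16) and 110 and 187 counts (log2 ratio 0.85, interval 0.50 to 1.20). Ms4a1, which encodes CD20, had 36 and 46 counts (log2 ratio 0.43, interval -0.22 to 1.11), a difference within counting error. Cd22, an inhibitory receptor, was lower, with 187 and 118 counts (log2 ratio -0.58, interval -0.92 to -0.24). Pax5 was listed at 0 in the WT and had 56 counts in the knockout library. Summed over these 5 markers, the level was 6.35 CPM for WT and 8.76 for the knockout, 1.38-fold higher, beside the 1.35-fold of Ighm, and 56 of the 547 knockout counts were those of Pax5. Over the whole list of 30 B cell genes, 17 were compared, of which 11 lay below 0 and 6 above, and the median log2 ratio was -0.58. By 2-fold 1 was lower (Blnk, log2 ratio -1.75) and 1 higher (Ccr7, log2 ratio 1.02), beside 8.61% and 8.45% of all genes. The higher call was lost with scaling by total count and with 5 reads added, and 2 genes were higher with the trend over GC content removed. By 1.5-fold 8 were lower and 4 higher. The summed level of the list was 210.0 and 140.7 CPM (log2 ratio -0.58), and without Cd74, named after its value was seen, 59.4 and 51.1 CPM (log2 ratio -0.22).

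**Figure D4:**
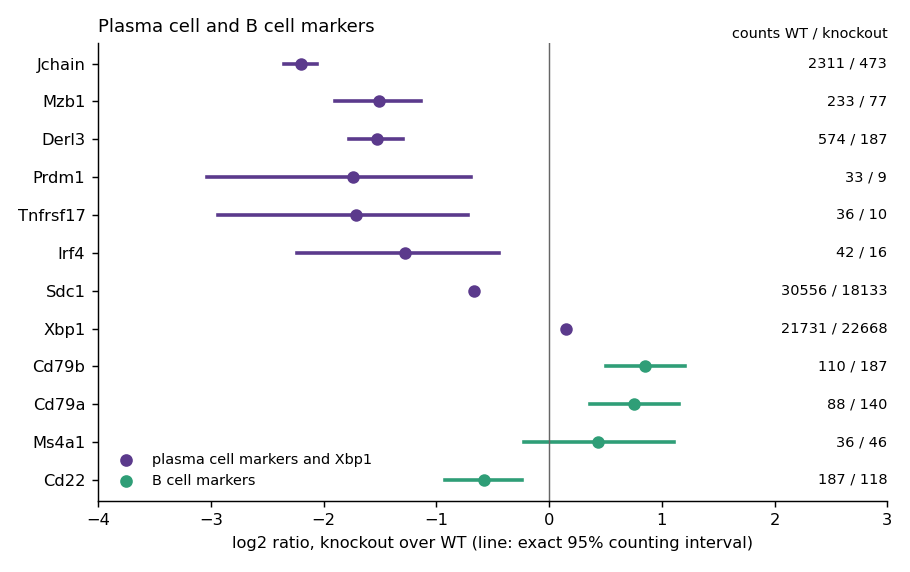
Log2 ratio of the knockout over the WT library for plasma cell markers with Xbp1 (purple) and B cell markers (green), with exact 95% counting intervals and the counts of both libraries at the right. The plasma cell markers from Jchain (-2.20) to Sdc1 (-0.67) have intervals wholly below 0, as has the B cell marker Cd22 (-0.58), and Cd79b (0.85) and Cd79a (0.75) have intervals wholly above it. Prdm1, Tnfrsf17, Irf4 and Ms4a1 lie under the mean count used for comparisons across genes. Pax5, listed at 0 in the WT library, is not drawn.

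Genes that act on antibodies outside the cells that make them were mixed. Pigr, the receptor that carries polymeric IgA and IgM across epithelia, had 14932 and 10584 counts (log2 ratio -0.41). Fcgrt, which encodes the heavy chain of the neonatal Fc receptor that protects IgG from breakdown, had 18553 and 16349 (log2 ratio -0.10), and its partner B2m had a log2 ratio of 0.44. The activating IgG receptor Fcgr3 was lower, with 2208 and 577 counts (log2 ratio -1.85), and the inhibitory receptor Fcgr2b, which in the liver is abundant on sinusoidal endothelium, was higher, with 975 and 2188 counts (log2 ratio 1.25). Of 12 genes of this list compared, these were the only ones past 2-fold, 1 in each direction, beside 8.61% and 8.45% of all genes, and the median log2 ratio was -0.17. Fcer1g, the signalling chain that Fcgr3 uses, stood at -0.60.

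Few genes of support and of class switching were past 2-fold, in both directions, beside 8.61% lower and 8.45% higher over all genes. With so few genes compared, these counts are not read as a trait of the lists. Among 9 compared genes for plasma cell survival and homing, the receptor subunit Il6ra was lower, with 1150 and 172 counts (log2 ratio -2.65), and Cxcr4, named after its value was seen, was higher, with 45 and 132 counts (log2 ratio 1.63). Vcam1 stood at -0.85, Cxcl12 at 0.25 and Ccl25 at 0.14, and the median log2 ratio was -0.37. Of 10 compared genes of class switching and germinal centres, 2 were lower, Ung (995 and 317 counts, log2 ratio -1.56) and Batf (-1.15), and 1 was higher, with Tgfbr1 at 0.69 and a median log2 ratio of -0.35. With the trend over GC content removed, 1 of the 10 was lower and 0 higher. The counts were also 1 and 0 when the interval had to lie wholly beyond 2-fold. Ung removes uracil from DNA in all cells. Rag1, Rag2 and Igll1 of early B cells were listed at 0 in both libraries. Of early B cell genes only Dntt (77 and 51 counts) and Cd93 could be compared, and both were within 2-fold.

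Markers of other blood-borne cells also differed between the libraries, and their part in the antibody genes was not tested. Of 14 compared T cell and NK cell genes 3 were lower and 0 higher by 2-fold, beside 8.61% and 8.45% of all genes, with a median log2 ratio of -0.40. Gzmb (457 and 126 counts, log2 ratio -1.77) and Trac (-1.46) were lowest and Klrb1c (0.48) and Cd2 (0.33) highest. Cd3e had 37 and 45 counts (log2 ratio 0.36, interval -0.29 to 1.04). All 6 T and NK cell markers were counted in both libraries, with a summed level of 8.84 and 6.74 CPM. Of 9 red cell genes 6 were compared, 5 were 2-fold lower and 0 higher, beside the same shares of all genes, and the summed level of the list was 3087 and 784 CPM. Among these, Hba-a2 (log2 ratio -3.30) was lowest and Alas2 (0.55) highest, and Epb42 was listed at 0 in both libraries. Hepatocyte genes had a median log2 ratio of 0.30 over 14 genes, from Trf at -0.93 to Apoa2 at 1.496.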

How the data were processed

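Per the labels' protocols, liver RNA was isolated with Trizol and sequenced from SMARTER libraries. The deposited files list raw read counts by Ensembl identifier, and the build is GRCm38 (mm10), per the submitters' processing notes. How reads were aligned and counted, and whether by strand, is not given in the sources used here. Names, exons, lengths and sequences came from GENCODE M21, with an entry for 55240 of the 55421 genes. Counts were scaled with TMM factors (1.02 for WT and 0.982 for the knockout; edgeR 4.0.16, R 4.3.3). For the log2 ratios alone, 0.5 reads, scaled to library size, were added to each count. Folds, levels, shares and intervals use counts without added reads. Log2 ratios are of the knockout library to the WT library. Genes were compared at a mean of at least 50 counts and called at 2-fold. Intervals are exact at 95%: conditional Clopper-Pearson for ratios, Clopper-Pearson for shares and Poisson for levels. They cover counting error only, because PCR copies are not told apart. There was no test and no p-value with 1 library per genotype, so edgeR served for scaling alone and DESeq2 1.42.0 for an alternative. The calculation was tested on simulated counts. The 9 genes and the 10 gene lists were chosen with earlier results of these data known, and the red cell list was added after the values were seen. Named genes are the 9, the other constant genes, 11 fixed markers, of each list the 2 highest and 2 lowest ratios among compared genes of 3 or more exons that neither library lists at 0, and the 3 V segments with most counts at each locus. Cd22, Pax5, Cd93, Rag1, Rag2, Igll1, Igkv14-111 and Epb42 were named in addition, after their values were seen, as was Cxcr4. Genes that the rule took but that are left out of the text are not reported here.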

Additional observations from a re-analysis of the deposited data

How the results depend on the processing

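No paired analysis was possible because each genotype has 1 library, and for the same reason no library could be left out. Of 45 recomputed ratios of the 9 genes (3 other scalings, 5 reads added, GC trend removed), 0 changed direction and 2 left their counting interval. With the GC trend removed, Jchain stood at -2.71 and Igha at -1.89, and the move of 0.51 for Jchain was the largest. The 6 lower and 1 higher genes kept these counts within 1.5 times under every planned setting. With genes of at least 3 exons alone, a setting chosen after seeing the data like the next pair, the higher count was 0. The IgG log2 ratio was -2.92 without Ighg1 and -3.83 without Ighg2c. Per kb of merged exons the IgG share was 69.7% (WT) and 39.9% (knockout), that of IgM with IgD 4.08% and 29.5%, and that of IgA 26.2% and 30.6%. Per kb of the shortest transcript, added later, IgM with IgD took 2.79% and 23.6%. The kappa share in the WT library was 95.03% by V segments in place of 3.84% by Igkc, and the cause was not tested. Among plasma cell genes, counts of lower genes went from 5 to 9 without the level filter, to 9 at a limit of 1.5-fold, which also gave 4 higher, to 1 at 4-fold and to 3 at a mean of 500. The sums without Iglc1 and without Jchain and Mzb1 were also added after seeing the data. A single read was worth about 0.0151 CPM (WT) and 0.0160 CPM (knockout) after TMM scaling. Genes with under 100 counts, such as Prdm1, Tnfrsf17 and Ighg3, have wide intervals.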

Other observations

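V segment families with at least 100 WT counts all stood lower in the knockout library, by different amounts. Since that limit is set in the library in which they are high, it leaves out families near or above their WT level. At the heavy locus, Ighv1, the largest family, had 1183 and 128 counts (log2 ratio -3.12, interval -3.40 to -2.86) and took 46.4% of heavy V counts (WT) and 57.7% (knockout). Ighv2 had 277 and 6 counts (log2 ratio -5.33, interval -6.90 to -4.30), and Ighv9 had 68 WT counts and was listed at 0 for the knockout. Ighv6 lay nearest to 0 among families with at least 100 counts in the WT library, with 104 and 19 counts (log2 ratio -2.34, interval -3.16 to -1.65). At the kappa locus, Igkv10 (567 and 39 counts, log2 ratio -3.76) and Igkv12 (327 and 22 counts, log2 ratio -3.78) were lowest among such families, and Igkv9 (129 and 43 counts, log2 ratio -1.49) and Igkv14 (196 and 51 counts, log2 ratio -1.85) were nearest to 0. Of the families under the limit, Igkv2 had 45 and 28 counts (log2 ratio -0.59, interval -1.33 to 0.11) and Ighv11 had 4 and 8. Igkv17 was listed at 0 for WT with 18 knockout counts and Igkv7 with 6. All families here were named after their values were seen.

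A few V segments went against the sum, all named after their values were seen. Ighv1-26 was listed at 0 for WT with 18 knockout counts, Igkv17-121 had 0 and 16, and Igkv2-112 had 5 and 21. Heavy chain constant counts per heavy V count were 5.08 (4.87 to 5.30) for WT and 10.8 (9.40 to 12.4) for the knockout.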
